A study of Mus musculus with 8 samples.

Results

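The proteasome subunit genes were examined in lumbar spinal cord, ventral part, of mice aged 120 days, on 4 arrays of MLC/SOD1G93A transgenic cord and 4 arrays of FVB control cord. MLC/SOD1G93A mice carry the mutant SOD1 gene under a Myosin Light Chain promoter that is specific for skeletal muscle, on the FVB strain, so the cord itself was not the tissue in which the transgene is driven. FVB mice without the transgene were the control. RNA of each sample was hybridized to an Affymetrix Mouse Gene 2.0 ST array, and values are log2 signals, so a difference of 0.585 is a 1.5-fold change. The labels number the samples 1 to 4 within each genotype and do not say whether every one came from its own animal. The p-values therefore cover only the spread among these samples, and part of it may be technical. In whole tissue, fewer cells of a type and less RNA per cell cannot be told apart.

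Members were all genes whose row on the array had a single symbol beginning with Psm, then a letter from a to g and a digit. This gave 49 genes of 22180 genes with such a row, among 41345 rows (transcript clusters) in all. Where a gene had several rows, as Psma5, Psmc2 and Psmg2 had, the brightest stood for it. Of the 49 genes, 47 encode parts, activators, inhibitors or assembly factors of the proteasome. The other 2, Psmc3ip and Psme3ip1, encode proteins named for an interaction with a subunit and were kept because the symbol rule takes them. A further 4 rows that carried a Psm symbol together with other symbols were left out, and Psma4 therefore has no value here. The mean signal of 44 members lay above the median row of the array (5.33), and that of 5 members, Psma5, Psma8, Psmb8, Psmb9 and Psmb11, lay below it. The table gave no detection call, so a dim row cannot be told from background.

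The proteasome is the enzyme complex that degrades proteins tagged with ubiquitin. Its core, the 20S particle, is a barrel of alpha rings, which gate the entrance, and beta rings, which hold the cutting sites in Psmb5, Psmb6 and Psmb7. The 19S particle caps the barrel, recognizes ubiquitin and unfolds substrates with its ATPase ring. Under interferon, cells make Psmb8, Psmb9 and Psmb10, which take the place of Psmb5, Psmb6 and Psmb7 in newly built barrels, the immunoproteasome, and favour the cutting of peptides for class I antigen presentation. Misfolded mutant SOD1 is a known proteasome substrate, and impaired protein degradation has long been studied in amyotrophic lateral sclerosis.

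As examples of the motifs searched, short stretches of the RefSeq promoters (GRCm38.p6) around a motif match are printed, with the matched bases in capitals, 5′ to 3′ on the strand of the gene. For the constitutive pair Psmb5 and Psmb6 the match is to TGACNNNGC, part of the antioxidant response element that Nfe2l1 and Nfe2l2 recognize. For Psmb8 it is to TTCNNNGAA, the gamma-activated site of STAT factors, and for Psme1 to the core of the interferon-stimulated response element (GAAA, any 2 bases, GAAA), read on the opposite strand.
Psmb5 (chr14:54618026-54618050, minus strand, match beginning 47 bases before the start site): tgaagttgTGACGTCGCggcgttgc
Psmb6 (chr11:70525340-70525364, plus strand, match beginning 9 bases before the start site): aaagagagTGACGGAGCgctttacg
Psmb8 (chr17:34198090-34198114, plus strand, match beginning 97 bases before the start site): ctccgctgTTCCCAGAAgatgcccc
Psme1 (chr14:55578496-55578520, plus strand, match beginning 9 bases after the start site): gctgtgcTTTCGCTTTCccttcccg

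RefSeq promoters, from 250 bases before to 50 bases after the start site, were matched to 41 of the 49 genes, and both strands were searched. TGACNNNGC stood in 6 of the 41 (14.6%), against 14.0% of 27025 genes with a promoter in the table. TTCNNNGAA stood in 3 (7.3%, against 9.6%), the interferon-stimulated core in 5 (12.2%, against 4.0%) and CCGGAA, the core of ETS factor sites, in 22 (53.7%, against 16.7%). None of the 4 motifs contains another. The interferon-stimulated core stood in Psme1 and also in Psmb3, Psmd4, Psmd9 and Psmg4, and not in the windows matched for the immunoproteasome genes. TTCNNNGAA stood in Psmb8 and also in Psmd2 and Psmg1. Each of these motifs was thus found outside the inducible genes as well. With so few inducible genes, the counts cannot decide whether a motif follows that division. The matches are descriptions of letters in these windows.

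No proteasome gene passed the test between MLC/SOD1G93A and FVB cord. The median difference of the 49 genes, MLC/SOD1G93A minus FVB, was 0.012 on the log2 scale, beside −0.00011 over all 22180 genes, with 26 genes higher and 23 lower. No member had its 4 MLC/SOD1G93A values wholly above or below its 4 FVB values, whereas 4.21% of all rows and 4.77% of all genes did. By limma no member passed an adjusted p (Benjamini-Hochberg over all 41345 rows) under 0.05, and the smallest adjusted p was 0.78. Of all rows, 0 passed it by limma and 0 by the methods' t-test. At an unadjusted p under 0.05 there were 0 of 49 members by limma, and 0 by the methods' t-test, against 2769 of all rows (6.7%) by limma and 2802 (6.78%) by the methods' t-test. By direction, limma gave 0 members higher and 0 lower, against 3.61% of all rows higher and 3.08% lower. Over the genes with 1 symbol these shares were 6.17% in all, 2.81% higher and 3.36% lower. With the study's fold threshold added, the methods' t-test took 0 members and 0.646% of all rows.

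A p-value that misses the threshold does not show equal levels, so the interval of each difference was read as well. The 95% interval lay wholly inside a 1.5-fold change in either direction (0.585 on the log2 scale), the fold threshold of the study, in 48 of the 49 genes. Over all genes this share was 89.5%, and over all genes with a row above the median row it was 95.4%, against 44 of 44 members. The exception was Psma5, an alpha subunit with a dim and variable row, whose interval ran from −0.59 to 0.67. The interval reached 0.191 to either side of the difference in the median member, 0.144 in the narrowest and 0.626 in Psma5. The difference farthest from 0 was that of Psme2, at 1.15-fold, and 41 of 49 genes differed by less than 0.1 on the log2 scale (83.7%, beside 59.9% of all genes). Among genes above the median row, 84.1% of the 44 members lay at or under 0.1, beside 66.1% of all such genes.

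**Figure D1:**
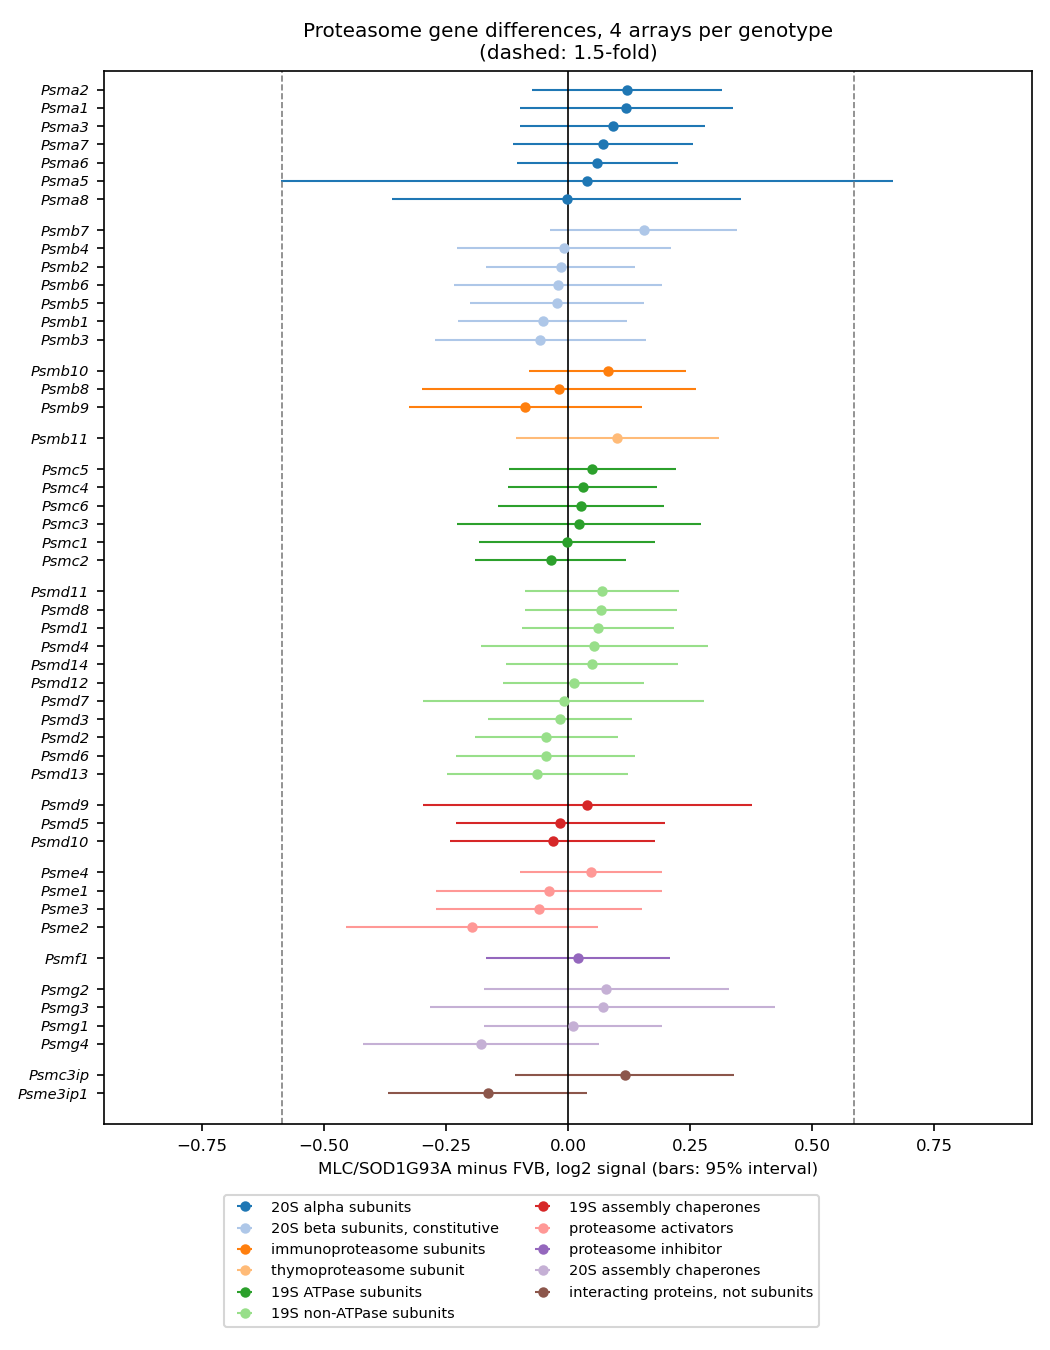
Difference of mean log2 signal, MLC/SOD1G93A minus FVB, for 49 genes grouped by role (points, coloured by role), with 95% limma intervals as bars and dashed lines at 1.5-fold. Every interval crosses 0, and only that of Psma5 crosses a dashed line.

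**Figure D2:**
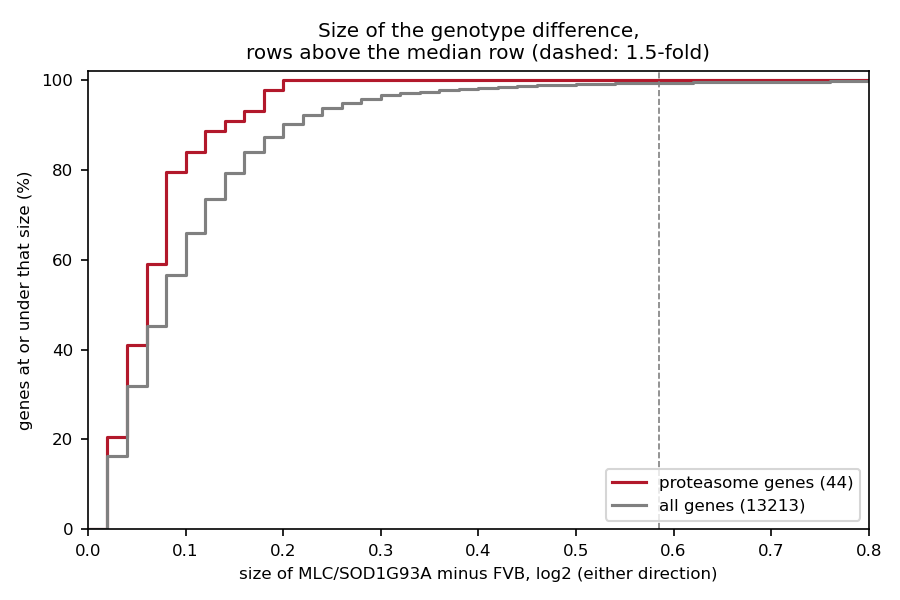
Share of genes (vertical axis, %) whose genotype difference is at or under a given size (horizontal axis, log2, either direction), for the 44 proteasome genes and all 13213 genes above the median row. All 44 proteasome genes lie at or under 0.2, and the dashed line marks 1.5-fold.

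None of the 3 immunoproteasome genes passed the test, and their differences lay on both sides of 0. Psmb8, the inducible counterpart of Psmb5, had log2 signals of 5.33, 5.26, 4.81 and 5.20 in MLC/SOD1G93A replicates 1 to 4, against 5.25, 5.22, 5.004 and 5.21 in FVB replicates 1 to 4. Replicate 3 was the lowest array in both genotypes and the remaining 6 values lay close together. The difference was −0.018 ± 0.12 (SE), with an interval from −0.30 to 0.26 (limma adjusted p = 0.986). Psmb9, the counterpart of Psmb6, stood at 4.66, 4.32, 4.57 and 4.59 in MLC/SOD1G93A cord, against 4.84, 4.58, 4.51 and 4.58 in FVB cord, a difference of −0.09 ± 0.10 (SE, limma adjusted p = 0.908). MLC/SOD1G93A replicate 2 was the lowest array, FVB replicate 1 the highest, and the other 6 lay between 4.51 and 4.66. Without the first the difference was −0.0168 and without the second −0.0179. The Psmb8 and Psmb9 rows both lie below the median row.

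Psmb10, the counterpart of Psmb7, was the bright member of the 3. It had 7.92, 8.06, 8.15 and 8.01 in MLC/SOD1G93A cord, against 7.95, 7.93, 7.96 and 7.97 in FVB cord. The FVB arrays were tightly grouped (SD 0.02, n = 4), and 3 of the 4 MLC/SOD1G93A arrays lay above all of them while replicate 1 lay below. The difference was 0.08 ± 0.07 (SE), with an interval from −0.08 to 0.24 (limma adjusted p = 0.872), and it was 0.042 without MLC/SOD1G93A replicate 3.

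The subunits that the inducible forms replace did not pass the test either. Psmb5, which cuts after hydrophobic residues, had 10.97, 10.79, 10.97 and 10.74 in MLC/SOD1G93A cord, against 10.90, 10.90, 10.83 and 10.93 in FVB cord, a difference of −0.02 ± 0.08 (SE, limma adjusted p = 0.972). Its MLC/SOD1G93A values lay on both sides of the FVB range. Psmb6, which cuts after acidic residues, had 6.81, 6.79, 6.66 and 6.54 in MLC/SOD1G93A cord, against 6.70, 6.63, 6.90 and 6.65 in FVB cord (difference −0.02 ± 0.09, SE, limma adjusted p = 0.98).

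Psmb7, which cuts after basic residues, had the lowest unadjusted p among the 20S genes. Its signals were 8.70, 8.89, 8.58 and 8.70 in MLC/SOD1G93A cord, against 8.47, 8.59, 8.63 and 8.55 in FVB cord. In MLC/SOD1G93A cord 3 arrays lay above every FVB array, and replicate 3 lay among them. The difference was 0.15 ± 0.08 (SE), 1.11-fold, with an interval from −0.04 to 0.35 (limma unadjusted p = 0.099, adjusted p = 0.78). Without MLC/SOD1G93A replicate 3 it was 0.20, with an unadjusted p of 0.0475 and an adjusted p of 0.813 by limma. Without MLC/SOD1G93A replicate 2 it was 0.098.

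Set against each other as the design asks, the median difference was −0.018 for the 3 immunoproteasome genes and 0.012 for the 43 genes set against them. These are all other members except Psma8, Psmb11 and Psmc3ip, so they include the interferon-induced Psme1 and Psme2 and the interacting Psme3ip1 as well as constitutive subunits. With the constitutive 20S and 19S subunits alone, the immunoproteasome median minus theirs was −0.04. With the 43 genes it was −0.03. The corresponding value on single arrays had an SD of 0.05 between arrays, which is not the uncertainty of a difference between genotypes. Within arrays, the inducible form minus the form it replaces differed between MLC/SOD1G93A and FVB by 0.0043 for Psmb8 and Psmb5, by −0.07 for Psmb9 and Psmb6, and by −0.07 for Psmb10 and Psmb7. The SD of these within-array values ran from 0.18 to 0.30 in MLC/SOD1G93A cord and from 0.07 to 0.22 in FVB cord. These composites were not tested.

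**Figure D3:**
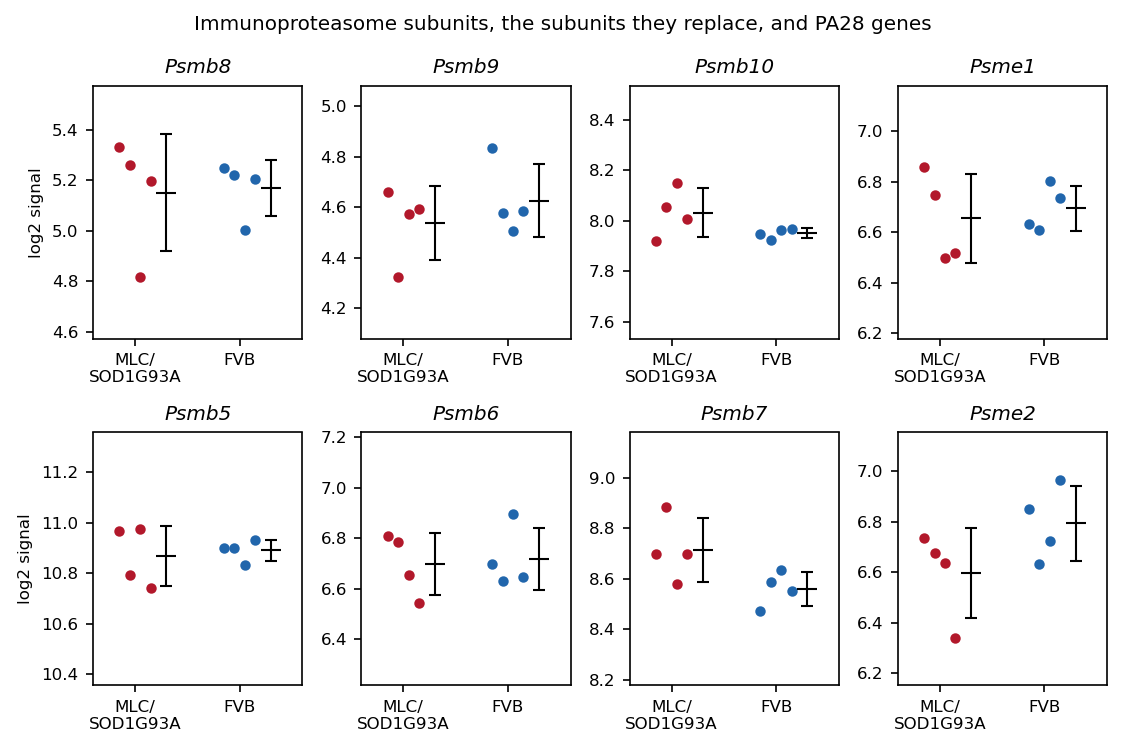
Log2 signal on each array (points; MLC/SOD1G93A red, FVB blue) with mean ± SD beside them (n = 4 each), for the inducible subunits and Psme1 (top row) and the subunits they replace and Psme2 (bottom row); each vertical axis spans 1 log2 unit and none starts at 0. The genotypes overlap in all 8 genes, and Psmb8 is lowest on replicate 3 of each genotype.

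Psme1 and Psme2 encode the PA28 ring, an interferon-induced cap that opens the barrel without ubiquitin. Psme2 had the difference farthest from 0 of the 49 members. Its log2 signals were 6.74, 6.68, 6.64 and 6.34 in MLC/SOD1G93A cord, against 6.85, 6.63, 6.72 and 6.97 in FVB cord. MLC/SOD1G93A replicate 4 was the lowest array and FVB replicate 4 the highest, and the remaining values overlapped. The difference was −0.20 ± 0.11 (SE), 1.15-fold, with an interval from −0.45 to 0.06 (limma unadjusted p = 0.118, adjusted p = 0.792), and it was −0.11 without MLC/SOD1G93A replicate 4. Psme1, its partner in the ring, had 6.86, 6.75, 6.50 and 6.52 in MLC/SOD1G93A cord, against 6.63, 6.61, 6.80 and 6.74 in FVB cord (difference −0.04 ± 0.10, SE, limma adjusted p = 0.96). The MLC/SOD1G93A values formed a pair above and a pair below the FVB mean of 6.69. Psme3, the nuclear PA28 gamma, and Psme4, the activator PA200, differed by −0.06 and 0.05.

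In the alpha ring, 6 of 7 genes were higher and 1 was lower, with a median difference of 0.07 and with 0 at an unadjusted p under 0.05. Psma2 led with 7.57, 7.70, 7.70 and 7.43 in MLC/SOD1G93A cord, against 7.55, 7.52, 7.39 and 7.46 in FVB cord. The difference was 0.12 ± 0.08 (SE, limma adjusted p = 0.837), and MLC/SOD1G93A replicate 4 lay inside the FVB range. Psma1 followed at 0.12 ± 0.10 (SE, limma adjusted p = 0.857) and Psma3 at 0.09 ± 0.08 (SE, limma adjusted p = 0.877). Psma7 and Psma6 differed by 0.07 and 0.06. Psma5, also counted as higher, had a dim and variable row and differed by 0.04 ± 0.27 (SE, limma adjusted p = 0.986). Psma8, a variant of Psma7 that serves the testis, was dim and differed by −0.0030.

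The 7 constitutive beta genes had 1 higher (Psmb7) and 6 lower, a median of −0.02 and 0 at an unadjusted p under 0.05. Psmb3, a beta subunit without a cutting site, was lowest at −0.06 ± 0.09 (SE, limma adjusted p = 0.935). Psmb1, Psmb2 and Psmb4, likewise structural, differed by −0.05, −0.015 and −0.0080. Psmb2 had means of 8.76 ± 0.08 in MLC/SOD1G93A cord and 8.77 ± 0.02 in FVB cord (SD, n = 4 each). Psmb11, the form restricted to thymic epithelium, stood at 4.39 to 4.62 in MLC/SOD1G93A cord and 4.24 to 4.50 in FVB cord. That dim row differed by 0.10 ± 0.09 (SE, limma adjusted p = 0.875).

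In the 19S particle, the 6 ATPase genes, which form the unfolding ring, differed by −0.04 (Psmc2) to 0.05 (Psmc5), with 4 higher and 2 lower and a median of 0.025. The 11 non-ATPase genes differed by −0.06 (Psmd13) to 0.07 (Psmd11), with 6 higher and 5 lower and a median of 0.012. The unadjusted p was under 0.05 in 0 of these 17 genes. Psmd11, a scaffold subunit of the lid, had 8.37, 8.21, 8.39 and 8.33 in MLC/SOD1G93A cord, against 8.21, 8.29, 8.25 and 8.27 in FVB cord (difference 0.07 ± 0.07, SE, limma adjusted p = 0.885). In MLC/SOD1G93A cord 3 arrays lay above the FVB range and replicate 2 at its lower edge. The difference was 0.11 without MLC/SOD1G93A replicate 2 and 0.046 without replicate 3. Psmd14, the enzyme that cuts ubiquitin chains off the substrate, differed by 0.05, and Psmd4, a ubiquitin receptor, also by 0.05. Psmd2, a scaffold of the base, had means of 9.00 ± 0.05 in MLC/SOD1G93A cord and 9.05 ± 0.04 in FVB cord (SD, n = 4 each). Psmd7, a lid subunit, had 8.60, 8.56, 8.25 and 8.04 in MLC/SOD1G93A cord, against 8.37, 8.34, 8.38 and 8.40 in FVB cord. The MLC/SOD1G93A values split into a pair above and a pair below the narrow FVB range, with an SD of 0.26 in MLC/SOD1G93A cord and 0.026 in FVB cord.

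Among assembly factors, Psmg4, a chaperone of the alpha ring, had the most negative difference. Its signals were 5.43, 5.75, 5.57 and 5.27 in MLC/SOD1G93A cord, against 5.73, 5.65, 5.66 and 5.70 in FVB cord, and MLC/SOD1G93A replicate 2 lay above all FVB arrays while the other 3 lay below. The difference was −0.18 ± 0.11 (SE), with an interval from −0.42 to 0.06 (limma unadjusted p = 0.128, adjusted p = 0.799). Without MLC/SOD1G93A replicate 2 the difference was −0.26, with an unadjusted p of 0.0227 and an adjusted p of 0.831 by limma. Without MLC/SOD1G93A replicate 4 it was −0.098. Psmg2, its fellow chaperone, differed by 0.08 on its bright row and by 0.19 on a dim second row, with means of 3.97 in MLC/SOD1G93A cord and 3.78 in FVB cord. The chaperones of the 19S base, Psmd5, Psmd9 and Psmd10, differed by −0.015, 0.04 and −0.03. Psmf1, the inhibitor PI31, differed by 0.02 ± 0.08 (SE, limma adjusted p = 0.976).

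Of the 2 genes outside the complex, Psme3ip1, which encodes a protein that binds Psme3, had 8.72, 8.86, 8.84 and 8.55 in MLC/SOD1G93A cord, against 8.94, 8.88, 8.83 and 8.98 in FVB cord. MLC/SOD1G93A replicates 1 and 4 lay below every FVB array. The difference was −0.16 ± 0.09 (SE, limma unadjusted p = 0.0991, adjusted p = 0.78), and −0.099 without MLC/SOD1G93A replicate 4. Psmc3ip, a factor of meiotic recombination, differed by 0.12 ± 0.10 (SE, limma adjusted p = 0.871).

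The 19S and constitutive beta genes, as groups, spread more between arrays in MLC/SOD1G93A cord. Averaged over the 17 subunits of the 19S particle, the deviation from each gene's mean over 8 arrays was 0.07, 0.05, −0.016 and −0.08 in MLC/SOD1G93A replicates 1 to 4, against −0.0067, −0.0051, −0.02 and 0.0055 in FVB replicates 1 to 4. Replicates 1 and 2 of MLC/SOD1G93A were thus high, and replicate 4 was low, while the 4 FVB means lay close to 0. The 7 constitutive beta genes gave 0.06, 0.06, −0.04 and −0.09 in MLC/SOD1G93A cord, against 0.03, −0.016, 0.00 and −0.0079 in FVB cord. Over all 49 genes the SD of this mean deviation was 0.05 in MLC/SOD1G93A cord and 0.01 in FVB cord. For the alpha genes (without Psma8) it was 0.079 in MLC/SOD1G93A cord and 0.064 in FVB cord. That alpha mean includes the dim and variable row of Psma5, whose own SD was 0.52 in MLC/SOD1G93A cord and 0.36 in FVB cord. The mean of the 3 immunoproteasome genes ran the other way, with an SD of 0.055 in MLC/SOD1G93A cord and 0.076 in FVB cord. Singly, Psmb8, Psmb9 and Psmb10 each had the larger SD in MLC/SOD1G93A cord (0.23, 0.15 and 0.10, against 0.11, 0.14 and 0.02).

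Among single genes, the SD was larger in MLC/SOD1G93A cord for 35 of 49 members (71.4%), beside 54.2% of all genes. Above the median row it was larger for 32 of 44 members, beside 56.4% of all such genes. The median SD of the members was 0.11 in MLC/SOD1G93A cord and 0.08 in FVB cord. MLC/SOD1G93A replicate 4 was the lowest of the 8 arrays in 15 members (30.6%, beside 14.1% of all genes) and MLC/SOD1G93A replicate 2 the highest in 13 (26.5%, beside 15.1%). These shares are descriptions, since genes of 1 array are not independent. Replicates 1 and 2 of MLC/SOD1G93A also lay above replicates 3 and 4 in other lists described below. Over replicates 1 to 4 the 6 neuron markers averaged 10.93, 10.98, 10.82 and 10.79, against 10.86, 10.89, 10.77 and 10.89 in FVB cord. The 12 partner genes averaged 8.78, 8.76, 8.71 and 8.63, against 8.71, 8.83, 8.75 and 8.79. Oligodendrocyte markers had another order (9.90, 9.58, 9.71 and 9.77 in MLC/SOD1G93A cord).

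**Figure D4:**
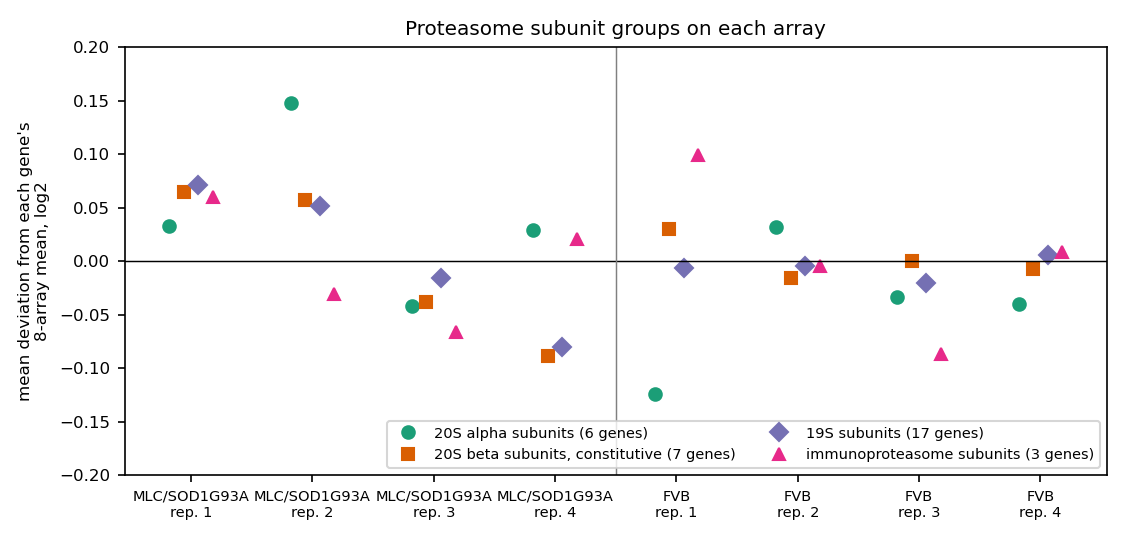
Mean deviation from each gene's mean over all 8 arrays (vertical axis, log2) on every array, for the alpha, constitutive beta, 19S and immunoproteasome genes (symbols). The 19S points spread from −0.08 to 0.07 over the MLC/SOD1G93A arrays and from −0.02 to 0.0055 over the FVB arrays.

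Markers of sensory neurons of the dorsal root ganglion, which lies beside the cord, were high on MLC/SOD1G93A replicates 1 and 2 (mean log2 signal 6.98 and 7.03) and low on replicates 3 and 4 (5.12 and 5.31). In FVB they were high on replicates 2 and 4 (6.34 and 6.48) and low on replicates 1 and 3 (5.20 and 5.16). In both genotypes the 2 arrays with high markers also had the higher 19S means, although in FVB cord those means spanned only −0.02 to 0.0055. The constitutive beta genes had the same order in MLC/SOD1G93A cord and the opposite in FVB cord, where replicates 1 and 3 (0.03 and 0.00) lay above replicates 2 and 4 (−0.016 and −0.0079). Xist, transcribed from the silenced X chromosome of female cells, gave log2 signals of 3.71, 4.50, 10.38 and 10.50 in MLC/SOD1G93A cord, against 4.46, 4.32, 3.63 and 10.41 in FVB cord. The labels do not give sex. Xist was high on MLC/SOD1G93A replicates 3 and 4 but only on replicate 4 of FVB, so it was not balanced between genotypes. In MLC/SOD1G93A cord, replicates 1 and 2 had both the high sensory markers and the low Xist. There the 2 cannot be told apart. The part of either in the spread of the proteasome genes was not tested. With either as a covariate, 0 of 49 members had an unadjusted p under 0.05 by limma. Of all rows, 6.03% had one with Xist as a covariate and 6.57% with the sensory neuron markers.

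The 6 neuron markers averaged 10.79 to 10.98 in MLC/SOD1G93A cord and 10.77 to 10.89 in FVB cord. Some marker lists held genes at an unadjusted p under 0.05 by limma, which 6.17% of all genes had. Of the oligodendrocyte markers, 5 of 5 were lower and 3 had an unadjusted p under 0.05, with list means of 9.58 to 9.90 in MLC/SOD1G93A cord and 10.01 to 10.24 in FVB cord. Of the markers of microglia, which express immunoproteasome genes, 5 of 5 were lower and 3 had an unadjusted p under 0.05, with list means of 6.66 to 6.83 in MLC/SOD1G93A cord and 6.78 to 7.05 in FVB cord. Schwann cell markers were higher in 4 of 4 cases, 4 of them with an unadjusted p under 0.05 (7.46 to 7.84 in MLC/SOD1G93A cord and 7.12 to 7.46 in FVB cord). Astrocyte markers were lower in 6 of 6 cases, 2 of them with an unadjusted p under 0.05. Of the endothelial and mural markers 5 of 6 were lower, and 1 had an unadjusted p under 0.05 (Kdr, −0.41, limma unadjusted p = 0.0106, adjusted p = 0.684). No marker passed the adjusted threshold by limma, and the part of these shifts in the proteasome values was not tested.

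Genes that act with the proteasome were read from lists. Of 12 partners analysed here, such as deubiquitinases and shuttle receptors, 3 were higher and 9 lower. Of these 12, 0 had an unadjusted p under 0.05 by limma, against 6.17% of all genes. The shuttle receptor gene Ubqln4 had 8.32, 8.28, 8.30 and 8.22 in MLC/SOD1G93A cord, against 8.33, 8.44, 8.39 and 8.35 in FVB cord, without overlap. Its difference was −0.10 ± 0.06 (SE, unadjusted p = 0.169 by limma and 0.0275 by the methods' t-test, limma adjusted p = 0.819). Of all genes, 4.77% had no overlap between genotypes. Of all rows, 6.78% had an unadjusted p under 0.05 by the methods' t-test. Pomp, the maturation factor that closes the 20S barrel, differed by −0.26 ± 0.16 (SE, limma adjusted p = 0.801), and Sem1, the smallest 19S subunit, by −0.17 ± 0.08 (SE, limma adjusted p = 0.774). Of 5 regulators, 2 were higher and 3 lower, with 0 at an unadjusted p under 0.05. Nfe2l1, the factor that raises proteasome gene expression when proteasomes are inhibited, had 8.77, 8.64, 8.53 and 8.67 in MLC/SOD1G93A cord, against 8.88, 8.77, 8.63 and 8.76 in FVB cord. Its difference was −0.11 ± 0.08 (SE, limma adjusted p = 0.844), with the genotypes overlapping.

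Of 9 class I presentation genes, 4 were higher and 5 lower, and 1 had an unadjusted p under 0.05 by limma, which 6.17% of all genes had. That gene was Tapbp, the tapasin that loads peptides onto class I molecules, with 7.13, 6.80, 6.90 and 7.05 in MLC/SOD1G93A cord, against 7.19, 7.11, 7.39 and 7.23 in FVB cord. The difference was 1.20-fold, −0.26 ± 0.10 (SE, limma unadjusted p = 0.0287, adjusted p = 0.709), and only MLC/SOD1G93A replicate 1 reached into the FVB range. Tap1 and Tap2, the peptide transporter genes that alternate with Psmb9 and Psmb8 along chromosome 17, differed by −0.04 and 0.11. Of 10 interferon response genes, 3 were higher and 7 lower, with 0 at an unadjusted p under 0.05 and a median of −0.08. Irf1, which switches on Psmb8 and Psmb9 after interferon, differed by −0.21 ± 0.17 (SE, limma adjusted p = 0.854).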

How the data were processed

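Total RNA of 8 samples was hybridized, 1 array each. The deposited values were log2 signals per transcript cluster, made by the authors with RMA summary and sketch quantile normalization (Affymetrix Expression Console and RMA in the submitters' processing notes). For versions, filters and genome build: not given in the sources used here. Quantile normalization equalizes the arrays' distributions and would hide a change shared by most transcripts, and the number of arrays limits the precision.

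Values were used as deposited. Genotypes were compared over all 41345 rows by limma 3.58.1 under R 4.3.3 (functions lmFit and eBayes) with Benjamini-Hochberg adjustment. Following the study's methods, no pairing or covariate was used. The methods' t-test, a one-way analysis of variance, was an alternative. Platform annotation gave 1 symbol to 23521 rows, several to 1820 and none to 16004. Control rows could not be set aside. The procedure was tested on simulated data.

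Members and gene lists were chosen with earlier results of these data known. Genes named are the immunoproteasome, replaced and PA28 genes, the largest rise and fall in each role, and listed pathway genes at an unadjusted p under 0.05. The other members and list genes given by name, such as Psmd7, Pomp, Sem1, Ubqln4, Nfe2l1 and Irf1, were chosen after their values were seen. Alternatives were another test, an intensity trend, array weights, a brightness filter, median centring, covariates, a replicate block, averaged rows and each array left out. Genes on the lists without a 1-symbol row were not analysed here.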

Additional observations from a re-analysis of the deposited data

Results flagged for a closer look

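In 4 of the 50 groups of 4 arrays examined, over the genes named by rule, 1 array lay far from the other 3 by Dixon's criterion, which chance meets in about 1 group in 20. Psmd10, a chaperone of the 19S base, was at 7.27 on MLC/SOD1G93A replicate 4, with the other MLC/SOD1G93A arrays at 7.55 to 7.59. Psmf1, the inhibitor PI31, was at 7.63 on MLC/SOD1G93A replicate 2, with the others at 7.79 to 7.82. FVB replicate 1 stood apart in 2 dim rows, for Psma8 at 4.64 (others 4.04 to 4.11) and for Psmb11 at 4.24 (others 4.47 to 4.50).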

How the results depend on the processing

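No transcript cluster passed an adjusted p under 0.05 by limma or the methods' t-test under any of the 16 alternatives, with 2364 to 3273 rows (5.72% to 7.92%) at an unadjusted p under 0.05 where all rows were tested, and 1837 (8.89%) where only rows above the median row were. Of the 49 proteasome genes, 0 to 1 had an unadjusted p under 0.05 when 1 array was left out. The single genes were Psmg4 without MLC/SOD1G93A replicate 2 (−0.26, limma adjusted p = 0.831) and Psmb7 without MLC/SOD1G93A replicate 3 (0.20, limma adjusted p = 0.813). Under the other alternatives the count was 0. The median difference of the members ranged from −0.0018 to 0.04 with an array left out. That of the immunoproteasome genes minus the constitutive genes ranged from −0.0805 to 0.0298, so its sign was not stable, and it was 0.0698 over rows above the median row, where Psmb10 alone of the 3 was left. Leaving out Psmc3ip and Psme3ip1, or counting the 20S and 19S subunits alone as constitutive, were alternatives chosen after seeing the data, and neither changed a sign or a count.

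Of 200 values of named genes with an array left out, 21 in 11 genes changed sign. Their lowest and highest values were −0.0785 and 0.0936 for Psmb8, −0.0578 and 0.0199 for Psmb5, −0.0576 and 0.0387 for Psmb6, −0.107 and 0.0126 for Psme1, −0.0845 and 0.137 for Psma8, −0.0984 and 0.0188 for Psmb3, −0.0573 and 0.0018 for Psmc2, −0.0802 and 0.118 for Psmd9, −0.0639 and 0.0438 for Psmd10, −0.0181 and 0.0625 for Psmf1, and −0.0075 and 0.13 for Psmg2. Of 198 values under the other alternatives 4 changed sign, all with the Xist level as a covariate: Psmb8 at 0.0149, Psmb6 at 0.0209, Psma8 at 0.0458 and Psmf1 at −0.0020. The cause was not tested. The sign of these genes is therefore not given by the data. The same holds for the other members, since the limma interval of every member ran from a negative to a positive difference. Keeping a sign with an array left out does not establish it.

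Residuals of arrays with the same replicate number correlated at −0.04, 0.18, −0.08 and 0.24 for numbers 1 to 4. Among the 4 FVB arrays, the same-numbered one had rank 3, 1, 3 and 1 in this correlation. The labels do not give a pairing, and 4 such values cannot decide whether there was one. With the replicate block, 0 members and 2773 rows had an unadjusted p under 0.05, and 0 rows passed the adjusted threshold. Rows near or below the median row, such as those of Psmb8 and Psmb9, carry the least signal over background, and a change in them could be understated.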
